A study of Homo sapiens with 12 samples.

Results

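The replacement histone variants are histones that a cell can make and load into chromatin outside the replication of its DNA. The 9 genes described here were taken from the deposited expression table by symbol: H2AFZ, H2AFV, H2AFX, H2AFY, H2AFJ, H3F3A, H3F3B, H1F0 and H1FX. The table holds 57905 genes. A filter on low values left 14699 of them to be tested, and 8 of the 9 variant genes were among these. H1FX was not.

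RNA was measured by sequencing stranded libraries of poly(A) RNA from PC9, HCC827 and HCC4006, which are established cell lines of human non-small cell lung cancer that carry EGFR mutations. Control cells of each line were kept in 10 cm dishes and given DMSO, the drugs' solvent, and were harvested after 24 hours. The cells labelled dormant grew in 15 cm dishes with 100 nM osimertinib, which blocks EGFR, and 30 nM trametinib, which blocks MEK, and were harvested after 2 weeks. Each line and treatment has 2 libraries, 12 in all. Drug, duration and dish changed together, and their parts in any difference cannot be told apart. Plates were set up in duplicate and nothing says that they came from separately grown cultures, so p-values reflect no more than the variation among these libraries.

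Most histone protein is made in S phase from clustered genes, whose mRNA ends in a stem-loop in place of a poly(A) tail. Replacement variants come mostly from single genes with ordinary poly(A) mRNA, and dedicated chaperones exchange them into chromatin throughout the cell cycle. H2A.Z marks the nucleosomes around active promoters, H2A.X is phosphorylated beside DNA breaks, macroH2A is enriched in repressed chromatin, H3.3 enters transcribed genes and telomeres, and the linker histone H1.0 is typical of cells that have stopped dividing.

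Several of these genes have close relatives, and the sequences show how well reads can be assigned. H3F3A and H3F3B encode the same H3.3 protein, and H2AFZ and H2AFV encode the closely related forms of H2A.Z. The first 90 coding bases of each, from GENCODE v29 transcripts, are given 5′ to 3′ with H3F3AP4, which is annotated as a pseudogene of H3F3A. Capitals mark the bases at which H3F3A and H3F3B differ in the first 3 lines, and at which H2AFZ and H2AFV differ in the other lines.
H3F3A: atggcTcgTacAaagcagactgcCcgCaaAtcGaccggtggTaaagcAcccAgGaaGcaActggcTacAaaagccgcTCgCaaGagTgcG
H3F3AP4: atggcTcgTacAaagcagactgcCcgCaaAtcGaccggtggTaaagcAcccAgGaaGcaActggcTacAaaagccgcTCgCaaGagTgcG
H3F3B: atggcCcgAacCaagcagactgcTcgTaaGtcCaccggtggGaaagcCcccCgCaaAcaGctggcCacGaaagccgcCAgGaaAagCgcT
H2AFZ: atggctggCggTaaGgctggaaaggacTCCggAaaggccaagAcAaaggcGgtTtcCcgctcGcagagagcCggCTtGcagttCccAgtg
H2AFV: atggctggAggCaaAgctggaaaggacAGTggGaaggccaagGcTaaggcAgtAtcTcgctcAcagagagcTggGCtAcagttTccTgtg
H3F3A and H3F3B differed at 21 of these 90 bases and at 88 of all 411 coding bases, an identity of 78.6%. H2AFZ and H2AFV differed at 19 of the 90 and at 76 of 387, an identity of 80.4%. The 411 annotated bases of H3F3AP4 were identical to the coding sequence of H3F3A throughout, so a read from within them cannot be told apart between the gene and the pseudogene. Values of H3F3A are therefore uncertain, and they are given below alone and summed with those of H3F3AP4.

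Promoters are shown for the genes that were lower in dormant cells of every line or were called lower in the mean over lines. RefSeq windows on build GRCh38.p14 were matched for 8 of the 9 genes, all but H1F0, and the 250 bases upstream of the start were searched on both strands. Capitals mark CCAAT, the box bound by the factor NF-Y, read as ATTGG on the other strand, and TTTGAA, the core of the cell cycle homology element, read as TTCAAA. All windows shown lie on the minus strand. They are chr4:99950276-99950525 for H2AFZ, chr11:119095466-119095715 for H2AFX and chr17:75779780-75780029 for H3F3B.
H2AFZ: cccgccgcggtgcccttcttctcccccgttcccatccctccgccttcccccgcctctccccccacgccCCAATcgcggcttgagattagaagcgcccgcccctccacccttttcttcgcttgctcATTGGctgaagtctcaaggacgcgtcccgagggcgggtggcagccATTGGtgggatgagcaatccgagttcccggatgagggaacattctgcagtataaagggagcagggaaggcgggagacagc
H2AFX: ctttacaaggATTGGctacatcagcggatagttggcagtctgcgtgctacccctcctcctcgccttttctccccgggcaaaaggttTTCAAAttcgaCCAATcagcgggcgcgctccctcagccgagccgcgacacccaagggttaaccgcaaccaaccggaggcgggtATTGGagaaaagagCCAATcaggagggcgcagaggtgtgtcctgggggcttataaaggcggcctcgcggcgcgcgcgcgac
H3F3B: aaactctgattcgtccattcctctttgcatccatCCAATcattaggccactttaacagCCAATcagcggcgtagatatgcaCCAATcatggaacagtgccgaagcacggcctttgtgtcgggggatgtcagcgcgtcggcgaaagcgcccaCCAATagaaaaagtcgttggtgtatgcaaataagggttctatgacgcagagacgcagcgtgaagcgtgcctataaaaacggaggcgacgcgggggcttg
CCAAT occurred 3 times in the H2AFZ window, 4 times in that of H2AFX and 4 times in that of H3F3B. It also occurred 4 times upstream of H2AFV and 3 times upstream of H2AFJ. At least 3 matches were present in 2.93% of 35116 windows of the same length over all genes, and at least 1 in 32.0%. TTTGAA was found once among the variants, in the H2AFX window, and in 13.3% of all windows. None of the marked matches overlaps another. These matches describe the letters only, and binding was not measured.

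Values are FPKM as the authors deposited them, fragment numbers scaled to gene length and library size, averaged over the value columns of a library. FPKM are per length, so levels can be set side by side between genes. Each difference subtracts the DMSO mean of log2(FPKM + 1) from the dormant mean. This scale understates the change of low genes. Differences are given with the SE of a linear model fitted with limma to all tested genes, in which all groups share 1 estimate of each gene's spread. A gene was called where its Benjamini-Hochberg adjusted p over all 14699 genes was under 0.05.

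In 2 libraries, values stood apart from those of their replicate. The second HCC4006 dormant library correlated with the first at r = 0.65 across genes, which are not independent replicates, and the second HCC827 DMSO library with the first at 0.91, against 0.98 to 0.99 for the other pairs. GAPDH, a glycolytic enzyme gene, was 6.73 FPKM in the first of these and at least 3755 in every other library, and ACTB, encoding cytoplasmic actin, was 1380 and 1842 FPKM in these libraries and at least 7915 elsewhere. In the second HCC4006 dormant library mitochondrial tRNA genes held 20.005% of summed FPKM, against 0.51% to 2.66% elsewhere, and 1948 tested genes were listed at 0, against 368 to 802. Both libraries also held lower values for GC-rich genes. The Spearman correlation of FPKM with GC content across genes was -0.37 and -0.30 in them and -0.08 to 0.17 in the others. Summed FPKM of 5 epithelial markers ranged from 5207 to 19185 in 9 libraries, and was 727 in the second HCC827 DMSO library and 483 to 1836 in dormant HCC4006. The 4 fibroblast markers summed to 262 to 376 in dormant HCC4006 against at most 3.71 elsewhere, nearly all of it COL1A2, while DCN, encoding decorin, was listed at 0. CD3E, which marks T cells, was listed at 0 in every group. Of the other leukocyte markers, PTPRC had group means of 0 to 0.07 FPKM and CD68 of 7.73 to 27.5. The part of these differences in the results was not tested. Results are given with all 12 libraries, and again with the 10 that remain without these 2.

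In DMSO cells, H2AFZ and H3F3B made up most of the FPKM of the 9 genes. H2AFZ ranked first in each line, with 956 ± 98.7 FPKM (SD, n = 2) in PC9, 2531 ± 272 in HCC827 and 2775 ± 506 in HCC4006. H3F3B ranked next, at 787 ± 73.4, 1983 ± 203 and 1986 ± 278 FPKM. In no line did the libraries of these genes overlap in level. H3F3A came after them at 94.9 to 137 FPKM as a group mean, H2AFV, H2AFY and H2AFJ lay between 8.77 and 41.6, and H1F0, H2AFX and H1FX between 0.055 and 7.90. Neighbours in this order that overlapped were H2AFV with H2AFY in HCC827 and HCC4006, and H2AFX with H1F0 in HCC4006.

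In dormant cells the order changed at the top. H3F3B had the highest mean of the 9 in PC9, at 567 ± 63.6 FPKM, and in HCC827, at 1322 ± 42.2. In HCC4006 the highest mean was that of H3F3A, at 1574 ± 1815, through 2858 FPKM in the library that stood apart. In the first HCC4006 dormant library H3F3B led at 1233 FPKM, before H2AFZ at 794 and H3F3A at 291. In HCC827 the libraries of H3F3A, at 314 and 348 FPKM, overlapped with those of H2AFZ, at 291 and 328. The 9 genes summed to 1784 and 2048 FPKM in PC9 DMSO libraries and to 887 and 1025 in PC9 dormant libraries. In HCC827 the sums were 4347 and 5032 against 2024 and 2020. In HCC4006 they were 4390 and 5590 against 2388 and, in the second dormant library, 3784. The sum was thus lower in every dormant library than in either DMSO library of its line. Fewer cells that carry a transcript and less of it per cell cannot be told apart in bulk RNA.

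**Figure D1:**
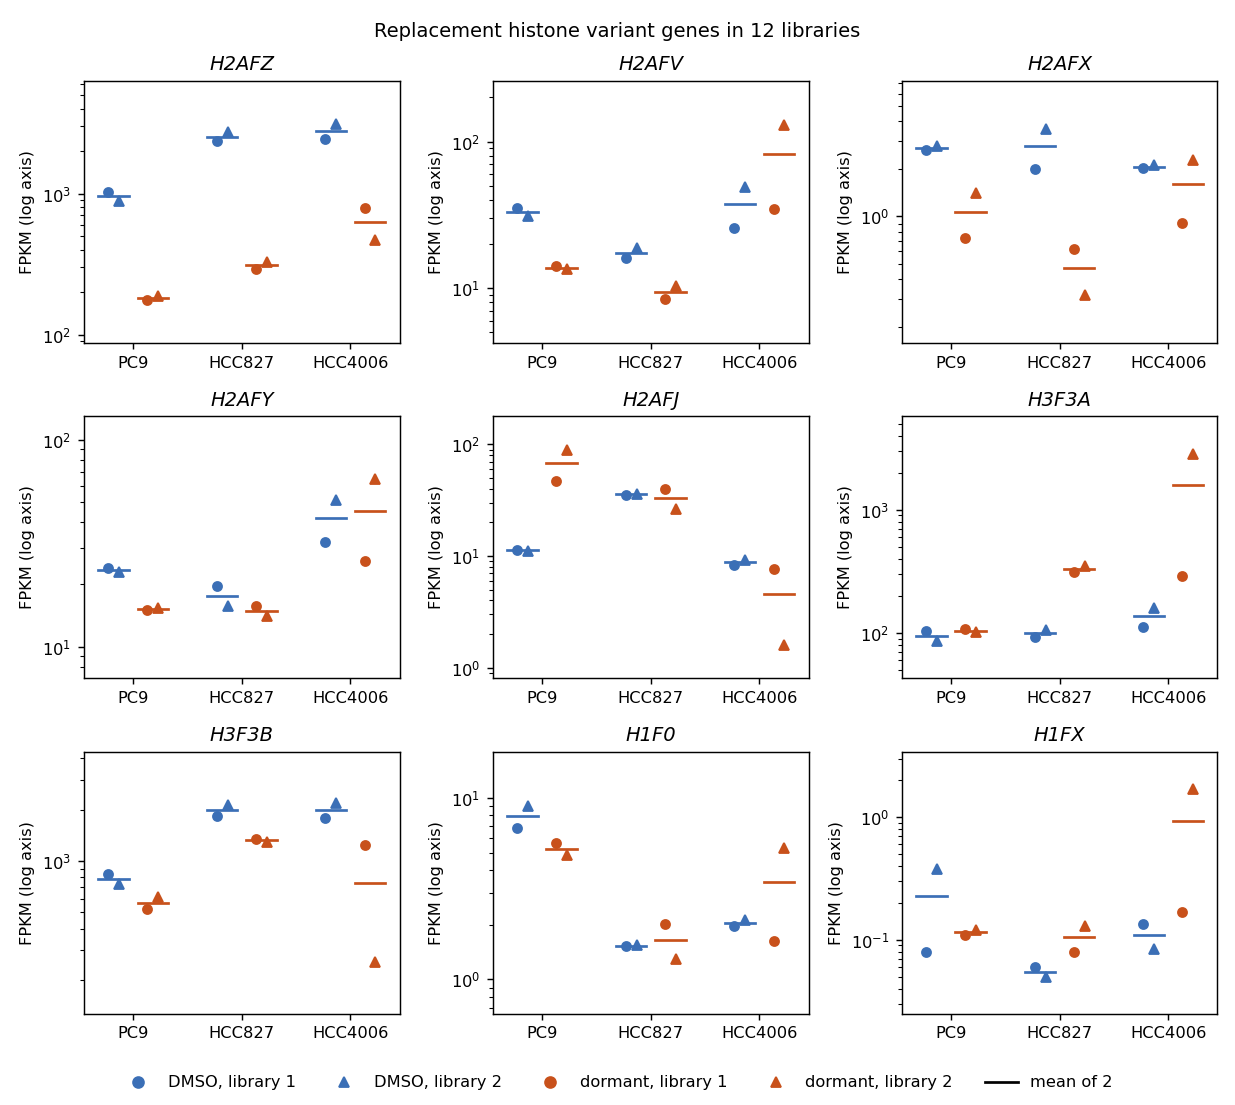
FPKM (log axis) of each replacement variant gene in the 12 libraries, by cell line, with DMSO in blue, dormant in orange, circles and triangles for the first and second library and a bar for the mean of 2. H2AFZ and H3F3B lie lower in dormant than in DMSO libraries of every line, whereas H3F3A lies higher in HCC827 and HCC4006, and H2AFJ lies higher in PC9 and lower in HCC4006.

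H2AFZ, the main gene of H2A.Z, was the one variant called lower in every line. In PC9 it was listed at 1025 and 886 FPKM with DMSO and at 175 and 188 in dormant cells. In HCC827 it was 2339 and 2723 against 291 and 328. In HCC4006 it was 2417 and 3133 against 794 and 467. Every dormant library lay below every DMSO library of its line, and below those of the other lines as well. The dormant mean was 0.190 of the DMSO mean in PC9, 0.122 in HCC827 and 0.227 in HCC4006. The mean difference over lines was -2.53 ± 0.27 (SE), with a 95% interval of -3.13 to -1.93 and a limma adjusted p of 0.000477. By line, the limma adjusted p was 0.0266 in PC9, 0.00719 in HCC827 and 0.0276 in HCC4006.

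H2AFZ was 1 of 12 genes called lower in every line, 0.0816% of those tested. In the mean over lines it kept its call without any single library, with adjusted p up to 0.00495, and with 10 libraries, at -2.36 ± 0.12. The calls of single lines were less firm. That of PC9 was lost in 8 of the 12 settings without 1 library, that of HCC4006 also in 8, and that of HCC827 without either of its dormant libraries, with adjusted p up to 0.302, 0.148 and 0.0986. With the lines as replicates the value stayed at -2.53 and the call was lost (limma adjusted p = 0.452). In that setting limma called 0 of the 14699 genes. The test of whether the H2AFZ difference varied between lines gave an adjusted p of 0.633.

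H2AFV, the other H2A.Z gene, was a minor part of H2A.Z mRNA. It was listed at 35.0 and 31.2 FPKM with DMSO and at 14.2 and 13.5 in dormant PC9 cells. In HCC827 the values were 16.2 and 18.7 against 8.48 and 10.4, so that the groups were apart in both lines. In HCC4006 the groups overlapped, at 25.8 and 49.2 against 34.5 and 129, the highest value being in the library that stood apart. The mean difference was -0.38 ± 0.35 (adjusted p = 0.486), with an interval of -1.17 to 0.41. With 10 libraries it was -0.66 ± 0.20 (limma adjusted p = 0.0259), and the HCC4006 value turned from 0.89 to -0.047.

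The balance between the H2A.Z genes shifted in every line. H2AFZ was 28.4 to 29.3 times H2AFV in FPKM in PC9 DMSO libraries and 12.3 to 13.96 times in dormant ones. In HCC827 it was 144 to 146 times against 31.5 to 34.3 times. In HCC4006 it was 63.7 to 93.7 times against 23.0 and, in the library that stood apart, 3.62 times. The log2 ratio was lower in both dormant libraries of each line, by 1.14, 2.14 and 3.08 in the group means, and the mean over lines was -2.12. An exact two-sided permutation test that exchanged libraries within lines, 216 exchanges in all, gave p = 0.00926, and 0.0139 after adjustment over the 3 paralog ratios tested. The smallest p that these exchanges can give is 0.0093. With 10 libraries the ratio differed by -1.67 (exact permutation test, adjusted p = 0.0278). Without either HCC4006 DMSO library the adjusted p was 0.0556, for -2.03 without the first and -2.21 without the second. H2AFZ still made up 92.5% to 97.2% of H2A.Z FPKM in dormant libraries, apart from 78.3% in the second of HCC4006, against 96.6% to 99.3% with DMSO.

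H2AFX, the gene of the variant that is phosphorylated beside DNA breaks, also fell in the mean over lines. The libraries hold poly(A) RNA, so any H2AFX mRNA without a poly(A) tail is not covered by these values. PC9 DMSO libraries listed it at 2.65 and 2.78 FPKM and PC9 dormant libraries at 0.725 and 1.41. In HCC827 it was 2.00 and 3.61 against 0.62 and 0.315. In HCC4006 it was 2.02 and 2.12 against 0.91 and 2.29, so that the groups overlapped there and were apart in the other lines. The mean difference was -0.83 ± 0.22 (limma adjusted p = 0.0311). Its value was -1.39 with 0.1 in place of 1 added before the log, since the gene is low.

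The call of H2AFX was lost in most settings without 1 library. It was kept with 10 libraries, at -0.86 ± 0.15 (limma adjusted p = 0.0023). Among settings without 1 library it was kept without the first HCC827 DMSO library or either HCC4006 dormant library, and lost without any of the other 9, with adjusted p up to 0.108. The difference itself stayed between -0.96 and -0.70 in these 12 settings. H2AFX is GC-rich, its longest transcript having 66.4% GC, above 99.2% of tested genes. After a trend on GC content and length was removed from each library, its difference was -0.94 with a limma adjusted p of 0.103. In the second HCC827 DMSO library the median of the upper 10% of genes by GC content was 0.63 FPKM, against 1.87 in its replicate. H2AFX had its highest value of all libraries there. This is 1 library of a low gene, and the part of GC content in the H2AFX difference was not tested.

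Over the 8 variant genes tested, the mean over lines thus held 2 called lower and 0 called higher. Of all tested genes, 4.55% were called lower and 10.9% higher. At an unadjusted limma p under 0.05 the count was 3 lower and 1 higher, the latter being H3F3A, against 9.64% and 22.6% of all tested genes. In each line H2AFZ was the 1 variant called lower, where the background was 0.891% in PC9, 1.44% in HCC827 and 1.18% in HCC4006, and 0 were called higher, where it was 1.82%, 3.06% and 4.88%. Unadjusted, 2 were lower and 1 higher in PC9, against 4.8% and 7.34% of all genes. In HCC827, 2 were lower and 0 higher, against 5.42% and 13%, and in HCC4006, 2 were lower and 1 higher, against 7.91% and 21.8%. The median difference of the 8 was -0.32, against 0.22 over all tested genes. Under median of ratios scaling the median of all genes moved from 0.22 to 0.03, and 1208 genes were called higher and 1241 lower in place of 1599 and 669. H2AFZ and H2AFX were called lower under that scaling too, at -2.83 and -1.01.

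Dormant and DMSO libraries were often apart where no call was made. In PC9 both dormant libraries lay below both DMSO libraries for 6 of the 8 tested variants and above them for 1, H2AFJ, against 27% and 35.5% of all tested genes. In HCC827 they lay below for 4 and above for 1, H3F3A, against 19.4% and 40.1%. In HCC4006 they lay below for 3, namely H2AFZ, H3F3B and H2AFJ, and above for 1, H3F3A, against 15.8% and 30.4%. In all lines together they lay below for 2, H2AFZ and H3F3B, and above for 0, against 4.43% and 9.12%. By limma, 0.225% of all genes were called higher in every line, and none of the variants was.

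With 10 libraries, 5 of the 8 were called lower and 2 higher in the mean, against 12.8% and 30% of all tested genes. H2AFZ, H2AFX, H2AFV, H2AFY and H3F3B were the lower ones, and H3F3A and H2AFJ the higher. In PC9 the calls were H2AFZ, H2AFX and H2AFV lower (8.65% of all genes) and H2AFJ higher (13.1%). In HCC827 they were H2AFZ and H2AFX lower (6.57%) and H3F3A higher (11.1%), and in HCC4006 H2AFZ lower (3.72%) and H3F3A higher (14.9%).

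**Figure D2:**
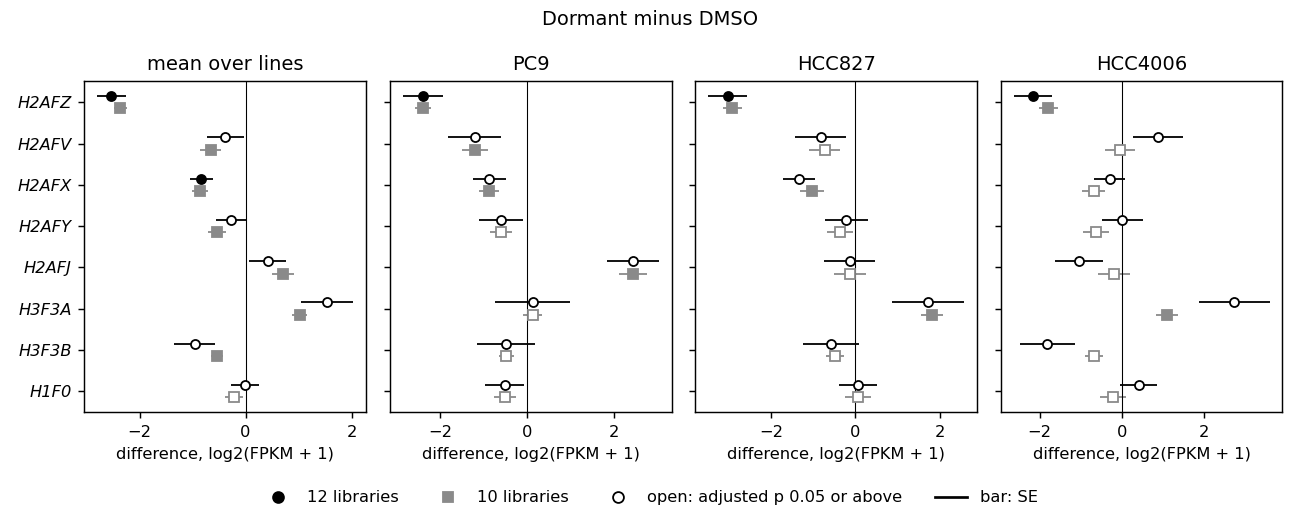
Difference between dormant and DMSO cells in log2(FPKM + 1) for the 8 tested genes, as the mean over lines and by line, from all 12 libraries (circles) and from the 10 without the libraries that stood apart (squares), with bars for the SE and open symbols for an adjusted p of 0.05 or above. H2AFZ is filled in all panels, from -2.17 in HCC4006 to -3.03 in HCC827, and H3F3A in HCC4006 moves from 2.75 to 1.103 when 10 libraries are used.

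H2AFY encodes macroH2A1, which carries a large extra domain and is enriched in repressed chromatin. It was listed at 24.1 and 23.0 FPKM with DMSO and at 15.0 and 15.3 in dormant PC9 cells, where the groups were apart. In HCC827 the values were 19.5 and 15.8 against 15.8 and 14.04, and in HCC4006 32.0 and 51.2 against 25.9 and 64.7, with overlap in both. The mean difference of -0.27 ± 0.29 was not called (limma adjusted p = 0.558), while that of -0.53 ± 0.17 from 10 libraries was (0.0304). In HCC4006 the value of 0.02 turned to -0.39 under median of ratios scaling, to -0.31 under quantile normalization and to -0.63 with 10 libraries.

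H2AFJ encodes H2A.J, a variant known to accumulate in senescent cells, and its dormant libraries lay above DMSO in PC9 and below it in HCC4006. In PC9 it was listed at 11.3 and 11.2 FPKM with DMSO and at 47.3 and 89.1 in dormant cells, a dormant mean 6.07 times that of DMSO. In HCC827 the groups overlapped, at 35.5 and 36.1 against 39.7 and 26.4. In HCC4006 dormant libraries were lower, at 7.62 and 1.61 against 8.24 and 9.30, the lowest value being in the library that stood apart. The PC9 difference of 2.43 ± 0.59 had a limma adjusted p of 0.0698, and 0.000882 with 10 libraries. The HCC4006 difference of -1.04 was -0.18 with 10 libraries.

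The test of whether a difference varied between lines was past the threshold for 0 of the 8 genes by limma, against 1.48% of all tested genes. H2AFJ had the lowest p of the 8 there, 0.00562 before and 0.163 after adjustment. With 10 libraries H2AFJ (limma adjusted p = 0.0143) and H3F3A (0.0372) were called in this test, against 8.92% of all genes. Without the first HCC4006 dormant library, 5 of the 8 were called in it, as were 54.8% of all genes.

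The genes of H3.3 had differences of opposite sign in HCC827 and HCC4006, none of which was called in a single line with all libraries. H3F3A was listed at 93.3 and 107 FPKM with DMSO and at 314 and 348 in dormant HCC827 cells. In HCC4006 it was 113 and 161 against 291 and, in the library that stood apart, 2858. In PC9 the groups overlapped, at 104 and 85.9 against 107 and 101. Dormant libraries were thus above DMSO libraries in HCC827 and HCC4006, and not in PC9. The mean difference of 1.54 ± 0.50 was not called (limma adjusted p = 0.0639), and with 10 libraries it was 1.02 ± 0.15 (0.000726).

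H3F3B was lower in every dormant library than in either DMSO library of its line. It was listed at 839 and 735 FPKM with DMSO against 522 and 612 in PC9, and at 1840 and 2126 against 1352 and 1292 in HCC827. In HCC4006 the values were 1789 and 2182 against 1233 and 254. The mean difference of H3F3B was -0.96 ± 0.38 (limma adjusted p = 0.12), with an interval of -1.82 to -0.10. With 10 libraries it was -0.54 ± 0.12 (0.00553).

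H3F3AP4 held most of the FPKM listed for it and H3F3A together in 11 libraries. These values do not show what was assigned to the shared coding bases, since those of H3F3A cover its whole transcript. H3F3AP4 was listed at 514 and 463 FPKM in PC9 DMSO libraries and at 353 and 362 in dormant ones. In HCC827 it was 447 and 325 against 871 and 939. In HCC4006 it was 824 and 603 against 783 and, in the library that stood apart, 76.6. H3F3A made up 12.1% to 27.1% of the sum of both in 11 libraries and 97.4% in the second HCC4006 dormant library, so that the split between them differed most in that library. The sum was 618 and 549 against 460 and 463 FPKM in PC9, 541 and 432 against 1185 and 1287 in HCC827, and 937 and 764 against 1074 and 2934 in HCC4006. On the sum, the difference was -0.33 in PC9, the reverse of the 0.14 for H3F3A alone, 1.35 in HCC827 and 1.07 in HCC4006. Its mean over lines was 0.70, with a limma adjusted p of 0.155. FPKM divides by length, and the 411 bases of the pseudogene raise its value per fragment, so the sum is not a count of transcripts.

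**Figure D3:**
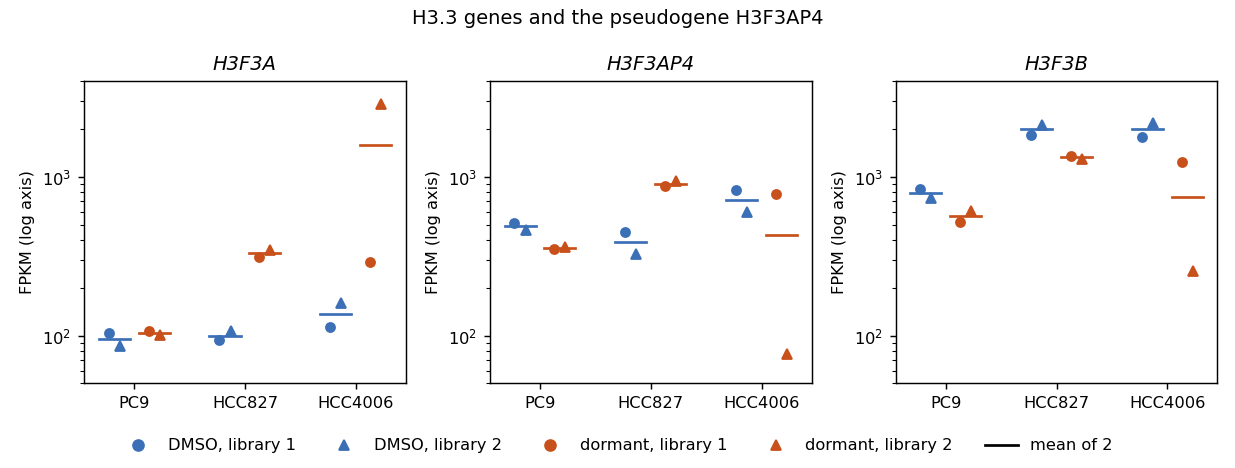
FPKM (log axis) of H3F3A, its pseudogene H3F3AP4 and H3F3B in the 12 libraries by cell line, with DMSO in blue, dormant in orange and a bar for the mean of 2. H3F3AP4 lies above H3F3A in 11 libraries and below it in the second HCC4006 dormant library, at 76.6 against 2858 FPKM.

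H3F3A gained on H3F3B in all lines. It was 10.5% to 11.01% of their summed FPKM in PC9 DMSO libraries and 14.2% to 17.0% in dormant ones. In HCC827 the share was 4.78% to 4.82% against 18.9% to 21.2%. In HCC4006 it was 5.94% to 6.86% against 19.1% and, in the library that stood apart, 91.8%. The log2 ratio of H3F3A to H3F3B was higher in both dormant libraries of each line, by 0.62, 2.31 and 4.58 in the group means, with a mean of 2.501 (exact two-sided permutation test, p = 0.00926, adjusted p = 0.0139). With 10 libraries the mean was 1.57 (adjusted p = 0.0278 by the exact permutation test), and without the second HCC4006 dormant library alone also 1.57. Without either HCC4006 DMSO library the adjusted p was 0.0972, for 2.46 without the first and 2.54 without the second. With H3F3A summed with H3F3AP4 the mean was 1.65 and the PC9 value 0.14.

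**Figure D4:**
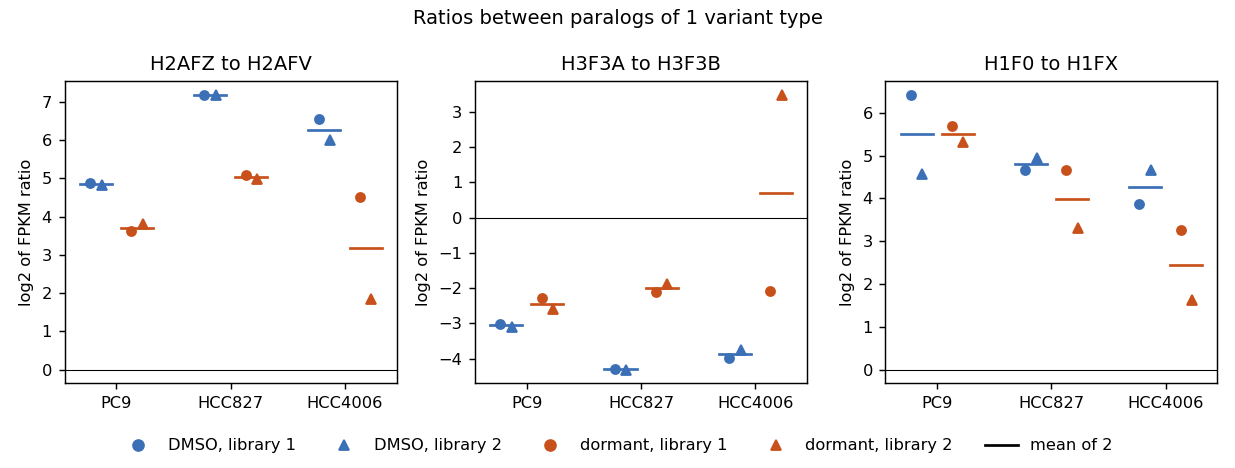
Log2 ratio of FPKM between paralogs of 1 variant type in the 12 libraries by cell line, with DMSO in blue, dormant in orange and a bar for the mean of 2. The ratio of H2AFZ to H2AFV is lower and that of H3F3A to H3F3B higher in both dormant libraries of every line, while dormant and DMSO libraries overlap for H1F0 to H1FX in PC9.

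The linker histone genes were low throughout. H1F0, encoding H1.0, was listed at 6.84 and 8.96 FPKM with DMSO and at 5.64 and 4.82 in dormant PC9 cells, so that the groups were apart. In HCC827 it was 1.53 and 1.54 against 2.02 and 1.30, and in HCC4006 1.98 and 2.14 against 1.64 and 5.29, with overlap in both. The mean difference was -0.01 ± 0.26 (limma adjusted p = 0.979), with an interval of -0.59 to 0.57. In HCC827 the value of 0.05 turned to -0.20 under median of ratios scaling. H1FX, encoding H1X, was between 0.05 and 0.375 FPKM in 11 libraries and 1.71 in the second HCC4006 dormant library. It was not tested, and its longest transcript has 68.6% GC, above 99.9% of tested genes. The log2 ratio of H1F0 to H1FX differed by -0.88 (exact two-sided permutation test, p = 0.12). With 10 libraries it was -0.56, and without single libraries it ranged from -1.18 to -0.57. With 1 added to each FPKM value it was -0.22.

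Between untreated lines, H1F0 was the 1 variant of 8 whose DMSO level was called different by limma's F test (adjusted p = 0.0463), against 12% of all tested genes. It was lower in HCC827 than in PC9 by a difference of -1.80 ± 0.45 (limma adjusted p = 0.0368, a call made for 4.14% of all genes in the lower and 4.11% in the higher direction). In HCC4006 it differed from PC9 by -1.53 ± 0.45 (0.0681). The call was lost without any 1 of the 10 libraries other than dormant HCC4006, and with 0.1 added in place of 1. H2AFZ was lower in DMSO libraries of PC9, at 886 to 1025 FPKM, than in those of the other lines, at 2339 to 3133, without being called (adjusted p = 0.0858). With 10 libraries H2AFZ, H3F3B, H2AFY, H2AFJ and H1F0 were called, against 48.4% of all genes. Without either HCC4006 dormant library alone, 5 were called as well, against 43.1% of all genes in both settings.

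The genes that load and remove variants were compared with the members. Of 14 genes for exchange of H2A.Z, 13 were tested and limma called 0 in the mean over lines. Of all genes, 10.9% were called higher and 4.55% lower. At an unadjusted limma p under 0.05 the count was also 0, against 22.6% and 9.64% of all genes. The median was 0.13 against 0.22 over all genes. ANP32E, a chaperone that removes H2A.Z from chromatin, differed by -0.44 ± 0.55 (limma adjusted p = 0.615). By line its difference was -0.99 in PC9, -2.46 in HCC827 and 2.14 in HCC4006, and with 10 libraries its mean was -0.87. With 10 libraries the median of the list was 0.17 against 0.20 over all genes. RUVBL1 and RUVBL2, ATPases of the exchange complexes, then differed by -0.75 and -0.90. Other genes of the list went the other way, with 0.66 for ZNHIT1, 0.61 for VPS72 and 0.42 for KAT5. These genes were singled out after their values were seen, and the list as a whole had no common direction.

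Of 7 genes for H3.3 deposition, 6 were tested. Limma called 1 higher and 0 lower in the mean over lines, against 10.9% and 4.55% of all genes. The median of the list was 0.21 against 0.22 over all genes, and -0.02 against 0.20 with 10 libraries. UBN1, a subunit of the HIRA complex, rose in the mean over lines, by 0.92 ± 0.24 (limma adjusted p = 0.0313). Its DMSO and dormant means were 2.56 ± 0.18 and 5.71 ± 1.83 FPKM in PC9, 0.93 ± 0.91 and 2.43 ± 0.29 in HCC827, and 1.19 ± 0.49 and 3.28 ± 0.63 in HCC4006. HIRA itself differed by 0.19 ± 0.19 (0.503) and DAXX, the other H3.3 chaperone, by -0.19 ± 0.46 (0.807). ATRX, the partner of DAXX, differed by 1.05 ± 0.36 (0.0762), and by 0.81 with 10 libraries. By line its difference was 0.12 in PC9, 0.52 in HCC827 and 2.51 in HCC4006.

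Assembly of chromatin behind the replication fork uses other chaperones. Of 6 such genes, limma called 2 lower and 0 higher, against 4.55% and 10.9% of all genes. Their median was -0.94, against 0.22 over all genes. ASF1B, a chaperone of histones H3 and H4, fell by 2.203 (limma adjusted p = 0.00437), and CHAF1B, a subunit of CAF-1, fell by 1.16 (0.0217). With 10 libraries the median was -0.85 against 0.20 over all genes. Of 7 genes for the stem-loop end of clustered histone mRNA, 6 were tested and limma called 0. The count was also 0 at an unadjusted limma p under 0.05, against 22.6% of all genes higher and 9.64% lower. SLBP, which binds the stem-loop, differed by -0.10 ± 0.40 (limma adjusted p = 0.881), with -0.85 in PC9, -0.61 in HCC827 and 1.16 in HCC4006. With 10 libraries the median of these genes was -0.28 against 0.20 over all genes. LSM10, singled out after its values were seen, then differed by -0.51.

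Of 9 genes that phosphorylate H2A.X or read that mark, limma called 1 lower and 0 higher, against 4.55% and 10.9% of all genes. MDC1, which binds phosphorylated H2A.X, fell by 0.71 (limma adjusted p = 0.0413). Of 11 further unclustered variant genes, 8 were in the table under the symbols searched and 3 were tested. Limma called 1 of these lower and 0 higher, against the same shares of all genes. CENPA, the centromeric form of H3, fell by 1.23 (limma adjusted p = 0.00237), with group means of 1.21 and 0.30 FPKM in PC9, 2.13 and 0.05 in HCC827, and 2.45 and 0.305 in HCC4006. H2AFY2, encoding macroH2A2, was near 0 in PC9, listed at 0 in HCC827, and at 6.49 ± 2.17 against 8.54 ± 2.25 FPKM in HCC4006.

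Proliferation genes were lower in the same comparison. Of 9, limma called 7 lower and 0 higher, against 4.55% and 10.9% of all genes. Their median was -1.89 against 0.22 over all genes, and -2.07 against 0.20 with 10 libraries. MKI67, a marker of dividing cells, fell by 1.71 (limma adjusted p = 0.00139). PCNA, the sliding clamp of DNA replication, fell by 1.89 (0.00276), and RRM2, a subunit of ribonucleotide reductase, fell by 4.36 (0.0019). CCNB1, encoding cyclin B1, fell by 3.601 (limma adjusted p = 0.000332). CDK1, its kinase, fell by 3.303 (0.000267), and TOP2A, a topoisomerase, fell by 2.48 (0.0189). By line the TOP2A difference was -2.20 in PC9, -5.33 in HCC827 and 0.10 in HCC4006. The part of the share of dividing cells in the H2AFZ difference was not tested.

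Clustered histone genes, measured through their poly(A) forms, were called higher more often than lower in the mean over lines. Of 37 listed genes 28 were tested, and limma called 17 higher and 6 lower, against 10.9% and 4.55% of all genes, with a median of 0.75. In HCC4006 alone 3 were called higher and 2 lower, against 4.88% and 1.18% of all genes. The median there was 0.015 against 0.15 over all genes. Some clustered genes passed the filter only through dormant libraries, and others only through DMSO libraries. Such genes could hardly be called in the other direction, so these counts do not test a direction of the list. HIST1H2AC, an H2A gene, rose by 4.13, from 1.26 ± 0.21 to 78.7 ± 6.54 FPKM in PC9, and HIST3H2A rose by 4.26, from 4.02 ± 2.92 to 1625 ± 66.6 in HCC827. HIST1H1C, a linker histone gene, rose by 2.82, mostly in PC9, where it went from 10.8 ± 1.42 to 630 ± 117 FPKM. HIST1H4C, an H4 gene, fell by 3.19. Clustered genes are close copies of each other, so the assignment of reads among them is uncertain. The sums that follow hold only the 37 clustered genes found by symbol, so any others are missing from them. In FPKM these 37 genes summed to less than the 9 variants in every DMSO library, at 382 to 708. In dormant libraries of PC9 they summed to 1178 and 1372, more than the 887 and 1025 of the variants. In HCC827 the sums were 2133 and 2028 against 2024 and 2020, and most of this was HIST3H2A, with a mean of 1625. In HCC4006 the sums were 317 and 165, below the variants and below the 555 and 565 of its DMSO libraries.

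**Figure D5:**
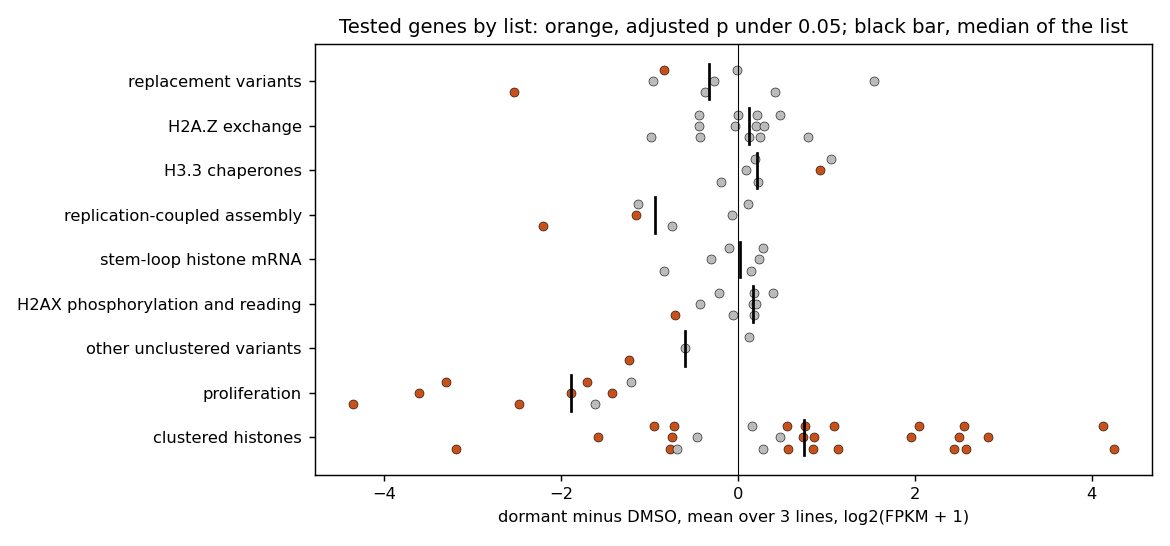
Difference between dormant and DMSO cells in log2(FPKM + 1), mean over 3 lines, for every tested gene of the replacement variants and of the related lists, with orange for an adjusted p under 0.05, grey for the rest and a black bar for the median of each list. The replacement variants spread from -2.53 for H2AFZ to 1.54 for H3F3A around a median of -0.32, and the proliferation genes lie around -1.89.

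The genes whose log2(FPKM + 1) followed that of each variant most closely over the 12 libraries are given as a description, since the libraries share lines and treatments. For H2AFZ they were PRIM1, a subunit of DNA primase, at a Pearson r of 0.98, an unnamed gene at 0.98 and LYAR at 0.97. With 10 libraries PRIM1 and MRTO4 were among the nearest, both at 0.98. For H2AFX they were BCYRN1, MND1 and CKS2, at 0.96, 0.96 and 0.93, and with 10 libraries MCM7, a subunit of the replicative helicase, led at 0.96. For H3F3A they were IGF1, ZXDB and CPE, at 0.99 each, a ranking in which the library that stood apart takes part. With 10 libraries PALLD, FBXO36 and ARHGEF40 led, at 0.99, 0.99 and 0.98. For H3F3B they were DAP3, MPRIP and GLOD4, and for H2AFV RAD1, MYO10 and SOX9, all at 0.96 to 0.98.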

How the data were processed

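RNA of 12 libraries was analysed from 1 table of FPKM values, deposited by the authors with 2 value columns per library that the notes do not explain. Both were averaged and counted as 1 library. The submitters' processing notes list, without role or order, Cufflinks 2.2.1, DESeq2 1.10.1, STAR 2.5.1b, GRCh37 and hg19. No counts were analysed here, so sequencing depth is unknown and no counting interval is given. Summed FPKM ranged from 793883 to 1159352.

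Values were used as log2(FPKM + 1), with no further scaling, keeping genes that reached 1 FPKM in 2 or more libraries. The limma package 3.58.1 (R 4.3.3) estimated 1 mean per group, with a mean-variance trend, 6 residual and 3.84 prior degrees of freedom, and two-sided tests adjusted by Benjamini-Hochberg. Contrasts were dormant minus DMSO in each line, their mean, F tests of variation between lines in that difference and in DMSO level, and the differences between lines in DMSO level. Paralog ratios were tested by exact permutation. The fit was tested on simulated data. Python 3.11.15, pandas 2.3.3, numpy 2.4.6, scipy 1.17.1 and matplotlib 3.10.9 were used. GC content, length and coding sequences came from GENCODE v29 (GRCh38), found for 96.5% of tested genes, and promoters from RefSeq, so no position on the authors' build is given.

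The members and lists were chosen with earlier results of these data known. Named are all 9 members, up to 4 called genes per related list with the largest mean difference, CENPA, H2AFY2, SLBP, ANP32E, HIRA, DAXX, ATRX, MKI67 and PCNA, the 3 genes nearest to a member, 1 of which is not reported here, and GAPDH and ACTB. Alternatives tried were another pseudocount, other filters and scalings, a replicate block, each library left out, each value column alone, quality weights and other units of replication. Endothelial markers were not tested because they were below the filter. Of the 3 leukocyte markers 1 was tested, CD68, and it was not called with all libraries. Its mean difference was -0.90, and -0.49 with 10 libraries. In HCC4006 the CD68 difference turned from -1.28 to 0.94 with 10 libraries.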

Additional observations from a re-analysis of the deposited data

Results flagged for a closer look

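H2AFJ stood out because both dormant libraries lay above both DMSO libraries in PC9 and below both in HCC4006. The widest gap between the differences of 2 lines was 3.47 in log2(FPKM + 1). The F test of variation between lines gave an adjusted p of 0.163 with limma, and 0.0143 without the libraries that stood apart. The HCC4006 difference was -1.04 with all libraries and -0.18 without the second dormant library.

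H3F3AP4, which is not a member of the variant group, was listed at up to 939 FPKM, in the second HCC827 dormant library, and at 76.6 FPKM or more in every library. Its annotated sequence is identical to the coding sequence of H3F3A. How fragments were divided between the 2 is not given in the sources used here.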

How the results depend on the processing

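The fall of H2AFZ in the mean over lines kept its direction in all 24 alternatives, from -2.83 to -2.24, and its call in 23, the exception being the lines as replicates, where 0 of 14699 genes were called. H2AFX kept its direction in all 23 that could test it, from -1.39 to -0.70, and its call in 9. A minimum of 5 FPKM left H2AFX untested. H3F3A in the mean stayed above 0 in 25 alternatives, from 0.70 to 2.08, and was called in 4.

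Counts of called members were 0 higher and 2 lower in the mean, against 10.9% and 4.55% of all tested genes. The counts without the 2 libraries that stood apart are given above, beside the shares of all genes. With quality weights they were 1 and 1 in the mean, 1 and 3 in PC9, and 1 and 2 in HCC827. For HCC4006 0 were lower, and 1 was called for variation and 4 for DMSO level. In that setting limma called 1107 higher and 487 lower of 14699 genes in the mean, and 2697 and 1790 in PC9. In HCC827 it called 1169 and 451, in HCC4006 17 and 7, for variation 465 and for DMSO level 6257. Fitted alone, PC9 had 1 higher and 3 lower, where 1601 and 1081 of all 14699 genes were called. HCC827 and HCC4006 had 0 lower, and in these lines that fit called 0 of all genes. Under median of ratios scaling and quantile normalization 1 was higher in PC9 and 2 were called for DMSO level, and quantile normalization gave 2 lower in HCC827. Of all 14699 genes, 381 were higher in PC9 under each, and 2361 and 2670 were called for DMSO level. In HCC827 463 were lower under quantile normalization. No filter gave 1 lower in the mean, 0 lower in HCC4006 and 0 for DMSO level, where 495, 110 and 1358 of 40839 genes were called. The minimum of 5 FPKM gave 1 lower in the mean, where 520 of 8107 genes were called lower. The lines as replicates gave 0 lower, as for all genes. For DMSO level, 0 were called with 0.1 added before the log, with the first value column alone, and after trend removal, an alternative added after seeing the data. Of all genes, 2111, 1684 and 2217 were called in these settings. Trend removal gave 3 lower in the mean, where 1182 of 14188 genes were called lower. H2AFX was not among these 3, and H2AFY was, at -0.71 (limma adjusted p = 0.0338).

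Leaving out 1 library left 1 in its group, and moved the number of calls among all genes as well. Counts of members in those settings are therefore not given here. The differences in paralog ratios ranged there from -2.56 to -1.67 for H2AFZ to H2AFV and 1.57 to 3.43 for H3F3A to H3F3B. For H1F0 to H1FX they ranged from -1.18 to -0.57. The cause of these changes was not tested.

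Replicate numbers are not known to pair the libraries. Deviations of same-numbered DMSO and dormant libraries correlated at 0.09 in PC9, 0.04 in HCC827 and 0.17 in HCC4006. Each value rests on 2 libraries a group, so it cannot exclude a pairing. With a replicate block, 1 member was lower in the mean, 0 in each line, and 0 were called for DMSO level. Of all 14699 genes, 453 were lower in the mean in that setting and 886 were called for DMSO level. By line, 34 were lower in PC9, 57 in HCC827 and 73 in HCC4006. H2AFZ then had a limma adjusted p of 0.0112 in the mean, and the H2AFZ to H2AFV and H3F3A to H3F3B ratios one of 0.0469 by exact permutation.

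Of differences that were not called, several changed sign. H2AFV in HCC4006 was -0.047 without the 2 libraries, and H2AFX in HCC4006 0.16 after trend removal. H2AFY in HCC4006 was -0.39 and -0.31 under the scalings, -0.63 without the 2 libraries and -0.88 after trend removal. H3F3A in PC9 was -0.33 when summed with H3F3AP4, also added after seeing the data. H1F0 in the mean was 8.81e-06 with 0.1 added before the log. H1F0 in HCC827 was -0.20 and -0.28 under the scalings and -0.39 after trend removal, and in HCC4006 -0.21 without the 2 libraries. Without single libraries these differences ranged from -0.047 to 1.83 for H2AFV in HCC4006, -0.68 to 0.10 for H2AFX in HCC4006, -0.63 to 0.66 for H2AFY in HCC4006 and -0.42 to 0.15 for H2AFJ in HCC827. For H1F0 they ranged from -0.22 to 0.20 in the mean, -0.14 to 0.25 in HCC827 and -0.21 to 1.04 in HCC4006. The first value column alone gave no H1F0 to H1FX ratio because H1FX was listed at 0 in a library. With 2 libraries a group and unknown depth, a difference that was not called is not shown to be absent, and low genes such as H1FX and H2AFX are limited most.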
